A study of Mus musculus with 8 samples.

Results

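Guanylate-binding proteins (GBPs) and immunity-related GTPases (IRGs) are GTPase families of the mouse that interferons, above all interferon gamma, induce. The account below covers 10 of them, Gbp2, Gbp3, Gbp4, Gbp6, Gbp7, Gbp8, Gbp9, Irgm1, Irgm2 and Igtp, in activated CD8 T cells with and without added o-phosphoethanolamine (pEtn). They were chosen by name, with their difference between the media already known, out of 45232 genes in the deposited count table. Of the 10 names, 9 have a row spelled exactly so. Gbp6 is listed as a pair of rows, Gbp6_1 (ENSMUSG00000079362) and Gbp6_2 (ENSMUSG00000104713), which makes 11 rows for the 10 names. Only Gbp6_2 carries the symbol Gbp6 in GENCODE M21, where Gbp6_1 is Gm43302, so it is uncertain whether Gbp6_1 belongs to the 10. Because the same comparison chose the genes, their differences between the media are given as a description. Where edgeR calls of these rows are counted, the counts describe the choice and test nothing.

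RNA was sequenced in bulk from CD8 T cells of OT-I mice, which carry a transgenic receptor for SIINFEKL, a peptide of ovalbumin. All cells had been activated with that peptide. Culture lasted 5 days, with IL-2 and RPMI containing 10% fetal bovine serum in every library. The RPMI group had no addition (4 libraries) and the pEtn group had 470 µM pEtn, the phosphorylated headgroup precursor of the membrane lipid phosphatidylethanolamine (4 libraries). The labels number the libraries 1 to 4 in each medium, and nothing in them says whether a number stands for a mouse, a culture or a day, so p-values measure the spread between these libraries, which may be technical.

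GBPs are large, dynamin-related GTPases that assemble on the membranes of pathogen vacuoles and on bacteria inside the cell. IRGs are smaller. In mouse, the IRGM subgroup (Irgm1, Irgm2 and Igtp, also called Irgm3) sits on the cell's own membranes and holds the effector IRGs, such as Iigp1, Tgtp1, Tgtp2 and Ifi47, in their inactive form. The families are best known from macrophages and fibroblasts infected with Toxoplasma or Chlamydia. Their promoters are classical interferon targets that carry gamma-activated sites and interferon-stimulated response elements, the latter bound by interferon regulatory factors.

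Start-site windows of these genes are shown because the members are a group of interferon targets that were higher together in one medium. RefSeq windows of GRCm38.p6, from 250 bases before to 50 after an annotated start, were matched by symbol for 6 of the 10 genes (Gbp2, Gbp3, Gbp7, Irgm1, Irgm2 and Igtp, 7 windows in all, since Gbp3 has a pair). Each was searched on both strands for a gamma-activated site, TTCNNNGAA, and for a core of the interferon-stimulated response element, GAAANNGAA (TTCNNTTTC on the other strand). Capitals mark the matches. The sequences run 5′ to 3′ on the gene's strand, complete for Gbp2 (chr3:142620413-142620712, plus strand) and Igtp (chr11:58199306-58199605, plus strand) and as the stretch around the matches for Gbp3 (chr3:142559988-142560026, plus strand), Gbp7 (chr3:142530218-142530304, plus strand), Irgm1 (chr11:48871424-48871462, minus strand) and Irgm2 (chr11:58214890-58214933, plus strand). Tgtp1 (chr11:48992303-48992346, minus strand) and Tgtp2 (chr11:49064262-49064305, minus strand), effector IRGs outside the 10, are added for comparison with Igtp and Irgm2.
Gbp2: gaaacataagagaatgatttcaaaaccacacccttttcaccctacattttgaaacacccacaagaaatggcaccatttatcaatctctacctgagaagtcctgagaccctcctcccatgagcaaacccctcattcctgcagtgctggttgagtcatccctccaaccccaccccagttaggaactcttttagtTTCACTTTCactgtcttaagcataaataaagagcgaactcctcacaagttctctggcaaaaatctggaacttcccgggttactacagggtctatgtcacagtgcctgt
Gbp3: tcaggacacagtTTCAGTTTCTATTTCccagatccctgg
Gbp7: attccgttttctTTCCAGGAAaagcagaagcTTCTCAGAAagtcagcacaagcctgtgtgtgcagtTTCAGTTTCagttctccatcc
Irgm1: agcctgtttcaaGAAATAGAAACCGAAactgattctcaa
Irgm2: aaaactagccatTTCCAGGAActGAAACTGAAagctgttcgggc
Igtp: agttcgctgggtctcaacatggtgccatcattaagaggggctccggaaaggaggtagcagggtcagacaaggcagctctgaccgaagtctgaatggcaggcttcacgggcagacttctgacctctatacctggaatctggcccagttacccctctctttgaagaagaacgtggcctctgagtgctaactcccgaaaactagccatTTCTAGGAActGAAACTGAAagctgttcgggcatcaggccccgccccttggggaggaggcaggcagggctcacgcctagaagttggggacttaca
Tgtp1: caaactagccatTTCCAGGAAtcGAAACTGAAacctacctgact
Tgtp2: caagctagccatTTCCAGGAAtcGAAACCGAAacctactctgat

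All 6 matched genes held the GAAANNGAA core, Gbp3 in 1 of its windows, and 3 of them (Gbp7, Irgm2 and Igtp) also held TTCNNNGAA. Across all 32851 windows of the table, 8.56% held the GAAANNGAA core, 8.30% held TTCNNNGAA and 1.07% held both. In Gbp2 the core began at position -58 from the annotated start, and in Gbp7 at position -52. In Igtp the gamma-activated site began at position -45 and the core at -34, with 2 bases between them. Irgm2 held the same arrangement at positions -75 and -64. That spacing was noticed after the sequences had been seen. Read in that order on either strand, it occurred in 8 windows of the table (0.0244%), those of Igtp, Irgm2, Tgtp1, Tgtp2, Gm12185, Adar, Olfr382 and LOC115488470. The windows of Igtp and Irgm2 are alike well beyond the motifs, as are those of Tgtp1, Tgtp2 and Gm12185. These family windows therefore cannot be counted as separate occurrences. Windows of 11 other family genes were searched too. Ifi47, called higher with pEtn below, Gm5431, 9930111J21Rik2 and Irgq held neither motif. Gbp5, Tgtp1, Tgtp2 and Gm12185 held both, as did Gm12250, which had 0 counts. 9930111J21Rik1 and Gbp2b, the latter with 1 count in all, held the core alone. Family windows on chromosome 18, where Iigp1 lies, were left out. A match describes letters and does not show a bound site, and these windows bear no measurement of binding here.

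The libraries held 31280997 to 34474420 counts in RPMI and 29223765 to 35504571 with pEtn, and counts for 14318 to 15205 genes. Of 11862 genes tested with edgeR's quasi-likelihood test, 619 (5.22%) were higher and 897 (7.56%) lower with pEtn at a Benjamini-Hochberg adjusted p under 0.05, and such genes are called below. Replicates 3 and 4 of each medium were closer to each other than any other pair of the same medium. Compared gene by gene, their counts gave a mean chi-square of 11.2 in RPMI and 5.04 with pEtn, against 51.1 to 107 for the other pairs. With replicates 3 and 4 summed into 1 library per medium, 79 of 11992 tested genes (0.659%) were called higher. The labelled cell type was checked on 8 genes of CD8 T cells, among them Cd8a, Cd8b1 and Cd3e. They summed to 3354 to 3833 CPM (counts scaled to a common library size) in RPMI and 3491 to 4009 CPM with pEtn, and 0 of 8 were called. Markers of myeloid cells, which also express these GTPases, summed to 3.08 to 9.91 CPM in RPMI and 5.67 to 19.2 CPM with pEtn, from a list of 8 genes. Of these, 3 were tested (Cd68, Itgam and Itgax), with a median log2 fold change of 0.88, higher with pEtn in all 4 replicate numbers. None of the 3 (0) was called, and 2 were with the replicate number as a block. Adgre1 and C1qa were at 0 in every library, and Lyz2, Csf1r and Flt3 had means of at most 0.0317 CPM. The part of such cells in the results was not tested. Markers of B cells summed to 0.850 to 2.67 CPM and 0.771 to 3.14 CPM, those of NK cells to 16.1 to 31.5 CPM and 5.94 to 33.8 CPM. Markers of CD4 and regulatory T cells summed to 26.5 to 54.8 CPM and 52.4 to 68.3 CPM, and 1 of the 3 tested (Zbtb7b) was called, while Cd4 had means of 0.317 and 0.124 CPM. Markers of erythroid cells summed to at most 0.381 CPM.

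With pEtn, the mean of each of the 11 rows was higher than in RPMI. Their combined share of all counts was 0.153% to 0.178% in the RPMI libraries and 0.251% to 0.343% in the pEtn libraries, so the media did not overlap. In bulk RNA, more cells with these transcripts and more transcript per cell cannot be told apart. Levels below are TMM-scaled CPM, averaged as mean ± SD (n = 4), and differences are edgeR log2 fold changes ± SE.

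The GBP genes of chromosome 3 include the member with the largest difference. Gbp2 is a prenylated GBP that in mouse coats Toxoplasma vacuoles. Gbp2 (ENSMUSG00000028270) stood at 152, 118, 145 and 118 CPM in RPMI replicates 1 to 4 and at 357, 258, 574 and 550 CPM in the pEtn replicates. Every pEtn library was above every RPMI library, and pEtn replicates 3 and 4 were the highest. The means were 133 ± 18.0 and 435 ± 153 CPM (n = 4), a log2 fold change of 1.70 ± 0.24, or 3.26-fold.

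Gbp3, another GBP seen on such vacuoles in mouse, had nearly equal RPMI libraries. Gbp3 (ENSMUSG00000028268) was at 48.5, 43.5, 47.8 and 46.8 CPM in RPMI and at 84.8, 78.5, 127 and 121 CPM with pEtn. The media did not overlap, and pEtn replicates 3 and 4 were again above 1 and 2. The log2 fold change was 1.14 ± 0.16, or 2.21-fold. Gbp7 is a GBP that mice need for control of Toxoplasma. Gbp7 (ENSMUSG00000040253) was at 162, 188, 137 and 129 CPM in RPMI and at 259, 246, 280 and 278 CPM with pEtn. Here the RPMI libraries spread more widely (154 ± 26.5 CPM) than the pEtn libraries (266 ± 16.0 CPM). The log2 fold change was 0.79 ± 0.12 with no overlap.

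**Figure D1:**
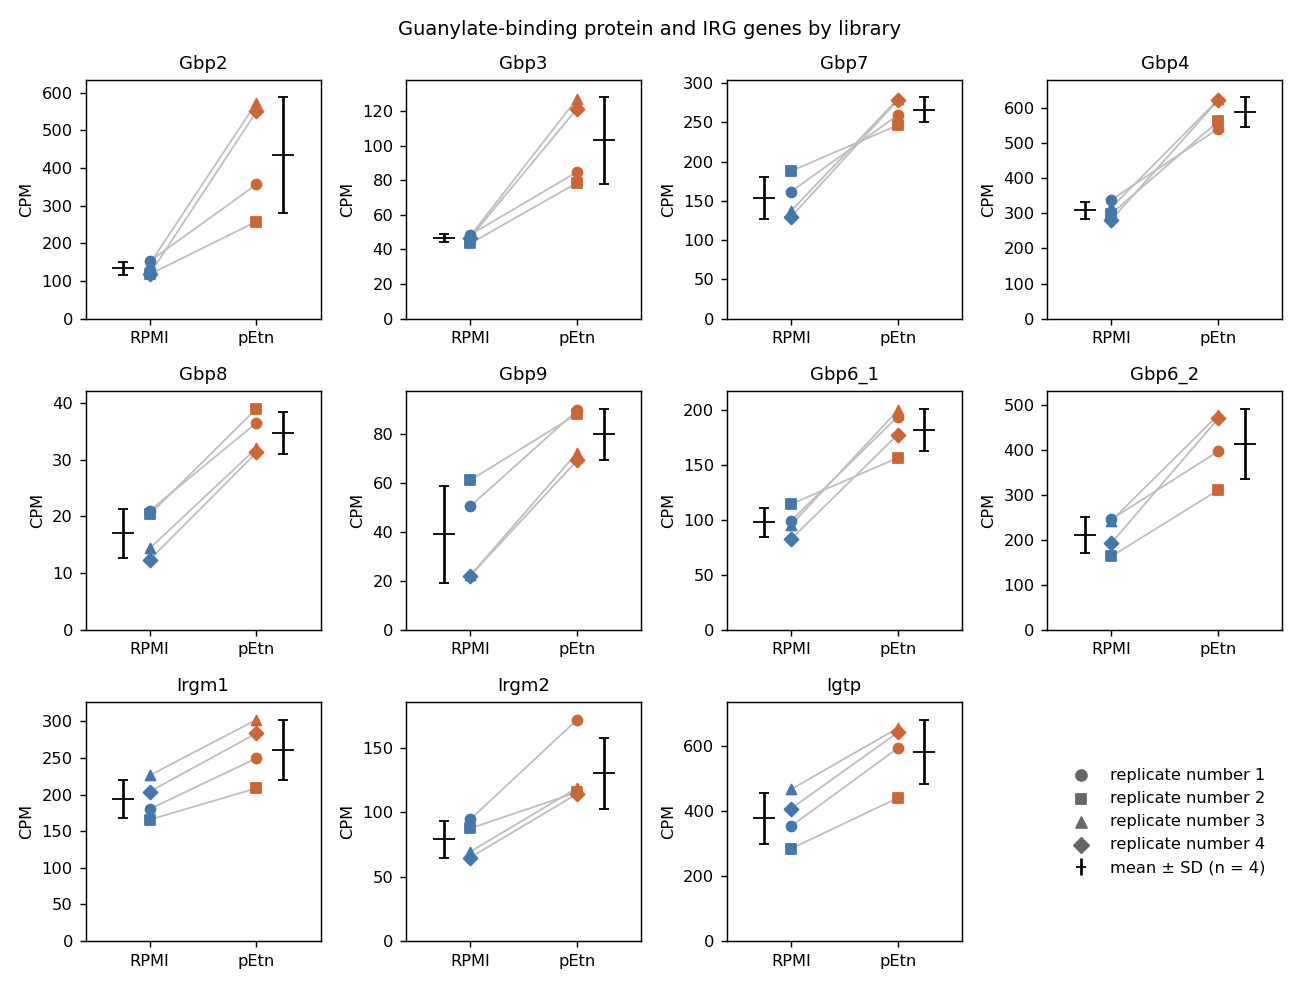
CPM of the 11 rows in each library, RPMI in blue and pEtn in orange, with a marker shape for each replicate number, grey lines between libraries of the same number and black bars for the mean ± SD of 4 libraries. The pEtn libraries lie above all RPMI libraries in 9 panels, and Irgm1 and Igtp overlap.

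Among the GBP genes of chromosome 5, Gbp4 had the highest mean CPM in both media, a measure that is not per transcript length. Gbp4 (ENSMUSG00000079363) was at 339, 299, 317 and 282 CPM in RPMI and at 541, 563, 625 and 623 CPM with pEtn. The libraries of each medium lay close together, which gave the smallest SE of the 11 rows, with a log2 fold change of 0.93 ± 0.09. Gbp8 (ENSMUSG00000034438) was the least abundant member, at 21.01, 20.4, 14.3 and 12.4 CPM in RPMI and 36.5, 39.0, 32.0 and 31.3 CPM with pEtn. Replicates 1 and 2 were above 3 and 4 in both media. Its log2 fold change was 1.03 ± 0.18.

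Gbp9 shared that pattern more strongly. Gbp9 (ENSMUSG00000029298) was at 50.6, 61.2, 22.2 and 22.1 CPM in RPMI and at 89.8, 88.3, 72.5 and 69.3 CPM with pEtn. The media did not overlap, but RPMI replicates 1 and 2 stood well above 3 and 4. The log2 fold change was 1.03 ± 0.32, with the largest SE of the 11 rows, and ran from 0.84 to 1.33 when 1 library was left out.

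The Gbp6 rows belong to the same chromosome 5 group, and mouse Gbp6 too is known from pathogen vacuoles. Gbp6_1 was at 98.8, 114, 94.9 and 82.1 CPM in RPMI and at 194, 156, 199 and 177 CPM with pEtn, a log2 fold change of 0.90 ± 0.12. Gbp6_2 was at 245, 163, 242 and 193 CPM in RPMI and at 396, 310, 477 and 469 CPM with pEtn, a log2 fold change of 0.97 ± 0.17. Neither row overlapped between the media. In GENCODE M21 transcripts, however, 100% of the 50-base stretches of Gbp6_1 and 70.7% of those of Gbp6_2 also occur in another gene, chiefly each other and Gbp10, so how the reads were divided between these rows is uncertain.

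The IRGM genes of chromosome 11 differed less. Irgm1, the regulator best known for its role in autophagy and in the survival of interferon-exposed T cells in mouse, overlapped between the media. Irgm1 (ENSMUSG00000046879) was at 180, 166, 226 and 204 CPM in RPMI and at 250, 209, 302 and 284 CPM with pEtn. RPMI replicate 3 was above pEtn replicate 2, although each pEtn library was above the RPMI library of its own number. The means were 194 ± 26.6 and 261 ± 41.2 CPM, and the log2 fold change was 0.43 ± 0.14, the smallest of the 11 rows.

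Irgm2 did not overlap between the media. Irgm2 (ENSMUSG00000069874) was at 94.5, 87.5, 69.4 and 64.8 CPM in RPMI and at 172, 116, 119 and 114 CPM with pEtn. pEtn replicate 1 stood far above the other pEtn libraries. The log2 fold change was 0.72 ± 0.17, and ran from 0.56 to 0.81 when 1 library was left out. Igtp, an IRGM protein found on the endoplasmic reticulum and lipid droplets, was the most abundant IRG by CPM. Igtp (ENSMUSG00000078853) was at 353, 284, 466 and 407 CPM in RPMI and at 594, 440, 655 and 642 CPM with pEtn, so pEtn replicate 2 lay below RPMI replicate 3. Its log2 fold change was 0.63 ± 0.17.

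Among the members, 7 of the 9 exactly named genes and both Gbp6 rows were called higher and 0 lower, where 5.22% of all tested genes were called higher. The rows not called were Gbp9 and Irgm1. The calls of Igtp and Irgm2 (edgeR adjusted p = 0.0405 and 0.0235) were lost in 6 and 2 of 8 fits that left out 1 library. With the replicate number as a block, all 11 rows were called, where 15.8% of all tested genes were called higher. With replicates 3 and 4 summed, 6 of 11 were called (Gbp2, Gbp3, Gbp4, Gbp7, Gbp8 and Gbp6_1), against 0.659% of the genes tested in that fit. All pEtn libraries were above all RPMI libraries for 9 of 11 rows, against 9.74% of tested genes. The same contrast chose the members, so these counts describe the choice and nothing is read from them. The median log2 fold change of the 11 rows was 0.93, and that of all tested genes was 0.02.

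The members were also compared within each replicate number. All 11 rows were higher with pEtn in all 4 numbers, as were 25.1% of tested genes. The median difference of log2 CPM over the 11 rows was 0.80 in number 1, 0.63 in number 2, 1.03 in number 3 and 1.14 in number 4. Gbp2 had differences of 1.23, 1.13, 1.98 and 2.22 in numbers 1 to 4, and Gbp9 had 0.83, 0.53, 1.70 and 1.65. In all 8 GBP rows of the members, the differences in numbers 3 and 4 were both larger than those in numbers 1 and 2. The IRGM genes did not share that split. Irgm1 had 0.47, 0.33, 0.42 and 0.48 and Igtp had 0.75, 0.63, 0.49 and 0.66. The split is not particular to GBPs, since most IRG rows outside the members had it. Iigp1 had 1.27, 1.32, 1.44 and 1.79, and Gm4951, Gm4841, Gm5431, Gm12185, F830016B08Rik, Tgtp2, 9930111J21Rik1 and 9930111J21Rik2 were split likewise. Ifi47, Tgtp1 and Irgq were not. The split rows are not all separate. Of their 50-base stretches, 9930111J21Rik1 shares 82.9%, 9930111J21Rik2 59.2% and Gm5431 37.3% with other genes, chiefly among these rows. Gm5431 was also near the floor, with means of 0.211 CPM in RPMI and 0.386 CPM with pEtn. With only replicates 1 and 2 fitted, the log2 fold change was 1.17 for Gbp2, 0.66 for Gbp9 and 0.68 for Igtp, and with only replicates 3 and 4 it was 2.09, 1.67 and 0.56. The RNA-quality transcripts Malat1 and Neat1 had median differences of -0.06, 0.14, 1.22 and 1.28 in numbers 1 to 4, larger in the same numbers as for Gbp2 and Gbp9, and their part in that pattern was not tested.

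**Figure D2:**
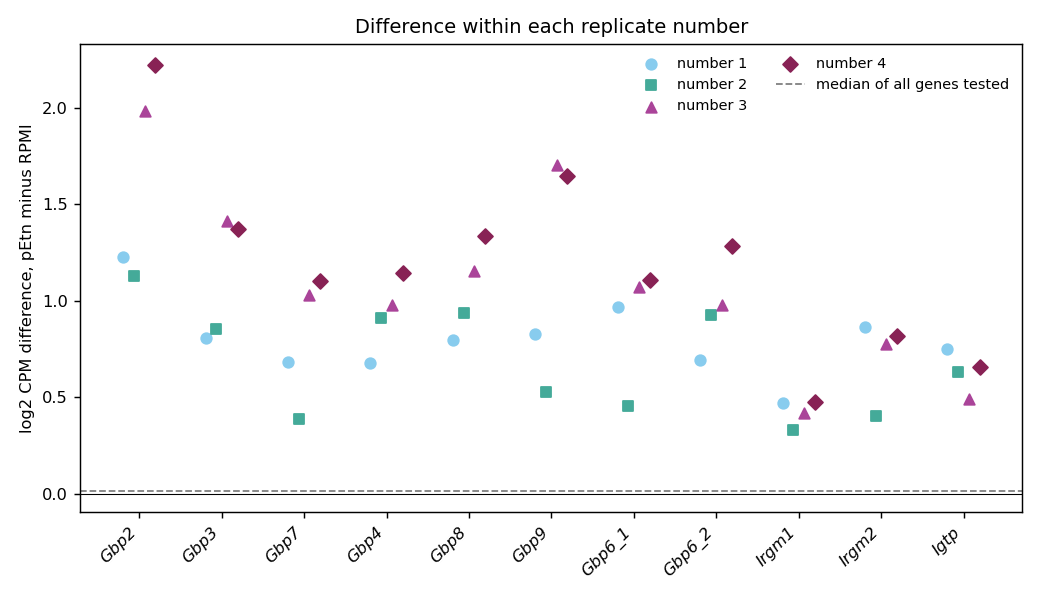
Difference of log2 CPM, pEtn minus RPMI, within each replicate number for the 11 rows, with the median of all genes tested as a dashed line near 0. All points lie above the line, and numbers 3 and 4 are highest in the 8 GBP rows but not in Irgm1, Irgm2 or Igtp.

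Within a medium, the members did not all vary together. Log2 CPM centred within each medium gave 55 pairwise correlations over 8 libraries, of which 35 were positive, with a median of 0.28. Irgm1 and Igtp were closest, at 0.96, followed by Gbp2 and Gbp3 at 0.95 and Gbp8 and Gbp9 at 0.94. At the other end, Gbp9 and Igtp stood at -0.78, and Gbp8 stood at -0.75 with both Irgm1 and Igtp. These values describe 8 libraries that include the close replicates 3 and 4. By the same measure, the genes most like the members' mean among 9184 others were Nrip1 and Ube2l6 (0.98 each), Gm4955 (0.98), Pip5k1c (0.97) and Zfpm1 (0.97). Of these, Ube2l6, the conjugating enzyme of the ubiquitin-like protein ISG15, was higher with pEtn (log2 fold change 1.13 ± 0.26, edgeR adjusted p = 0.0218). Gm4955 was also called (0.78 ± 0.21, edgeR adjusted p = 0.0411). Nrip1 (-0.03 ± 0.14), Pip5k1c (-0.44 ± 0.14) and Zfpm1 (0.57 ± 0.18) were not called (edgeR adjusted p = 0.908, 0.0696 and 0.0710). These genes are the highest of 9184 correlations over 8 libraries, with the mean of members that did not all vary together.

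Levels between genes were compared in deposited TPM, which is per transcript length. Igtp was the most abundant of the whole family in both media, at 486 ± 96.7 TPM in RPMI and 757 ± 131 TPM with pEtn. In RPMI, Gbp2 at 138 ± 20.5 TPM came next among the members. Gbp2 did not differ beyond the SDs from Gbp6_2 at 130 ± 25.7 TPM, nor did Gbp6_2 from Gbp4 at 108 ± 10.3 TPM. Gbp4, Irgm1 (87.0 ± 11.2 TPM), Gbp7 (71.6 ± 12.97 TPM) and Irgm2 (57.1 ± 11.2 TPM) formed a chain in which each neighbour overlapped the next within the SDs. Gbp3 (37.3 ± 2.08 TPM) and Gbp6_1 (36.9 ± 5.28 TPM) were alike within their SDs, and Gbp9 (19.8 ± 10.3 TPM) and Gbp8 (12.9 ± 3.47 TPM) were the lowest.

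With pEtn the order of the first places was kept, Igtp, Gbp2, Gbp6_2 and Gbp4. Gbp2 reached 453 ± 159 TPM, Gbp6_2 256 ± 48.5 TPM and Gbp4 206 ± 14.2 TPM. Gbp7 (124 ± 7.82 TPM), Irgm1 (118 ± 18.6 TPM), Irgm2 (94.5 ± 21.5 TPM), Gbp3 (82.8 ± 19.8 TPM) and Gbp6_1 (69.1 ± 7.63 TPM) each overlapped the next within the SDs. Gbp9 (40.6 ± 5.49 TPM) and Gbp8 (26.5 ± 2.78 TPM) were again lowest and here were separated.

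**Figure D3:**
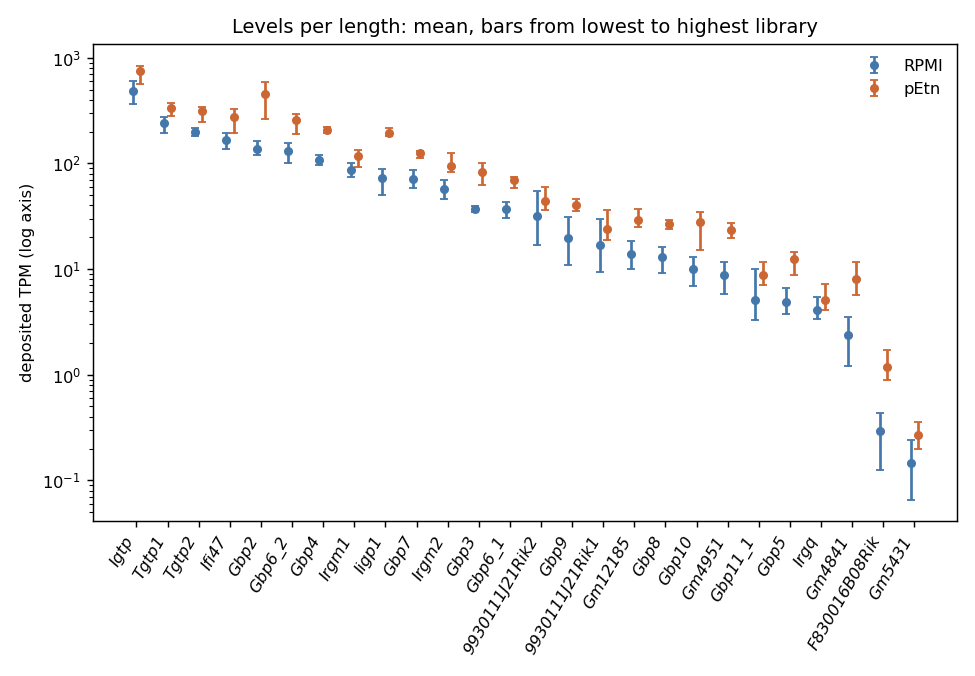
Deposited TPM of the 26 tested GBP and IRG rows on a log axis, ordered by the RPMI mean, with the mean of 4 libraries as a point and a bar from the lowest to the highest library. Igtp is first in both media, and Gbp2 moves from 138 to 453 TPM.

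Outside the members, the table held 20 further rows of the families, of which 15 could be tested. Of these, 10 were called higher with pEtn and 0 lower, with a median log2 fold change of 0.84. The background is the 5.22% called higher among all tested genes and a median of 0.02. With replicates 3 and 4 summed, 3 of the 15 were called higher (Gbp5, Iigp1 and Gm4951), where 0.659% of the genes tested in that fit were. Gbp2b, Gbp11_2, Gm12250 (also called Irgb10), Gm12187 and Irgc1 had 0 or 1 count in all libraries together and were not tested. Gm12250 and Gm12187 are listed as pseudogenes in GENCODE M21. How such genes were counted is not given in the sources, so their 0 counts need not mean absent transcripts.

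Gbp5, a chromosome 3 GBP that in mouse acts in inflammasome activation, rose from 12.3 ± 2.90 to 31.7 ± 6.56 CPM (n = 4, log2 fold change 1.36 ± 0.20, edgeR adjusted p = 0.0031). Gbp10, of the chromosome 5 group, rose by 1.47 ± 0.26 on the log2 scale (edgeR adjusted p = 0.0068), although 84.1% of its 50-base stretches are shared, mostly with the Gbp6 rows. Gbp11_1 had a log2 fold change of 0.79 ± 0.35 and was not called (edgeR adjusted p = 0.175), and with the replicate block the adjusted p was 0.0088. Among the effector IRGs, Iigp1 (Irga6), which loads early onto Toxoplasma vacuoles in mouse, had the smallest p. It was at 104, 90.3, 88.01 and 61.3 CPM in RPMI and at 252, 226, 239 and 213 CPM with pEtn. All pEtn libraries were above all RPMI libraries, and the log2 fold change was 1.43 ± 0.15 (edgeR adjusted p = 0.0010).

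The other effector IRGs spread over a range of sizes. Gm4951 rose by 1.44 ± 0.19 on the log2 scale (edgeR adjusted p = 0.0022) and Gm12185 by 1.04 ± 0.20 (edgeR adjusted p = 0.0107). The low-abundance rows Gm4841 (2.60 to 8.61 CPM) and F830016B08Rik (0.371 to 1.47 CPM) had log2 fold changes of 1.72 ± 0.37 and 1.97 ± 0.40 (edgeR adjusted p = 0.0148 and 0.0130). Tgtp2 rose by 0.64 ± 0.11 (edgeR adjusted p = 0.0070). Tgtp1 rose by 0.47 ± 0.12 (edgeR adjusted p = 0.0351) and Ifi47 by 0.73 ± 0.17 (edgeR adjusted p = 0.0245), and both lost the call in 6 of 8 fits that left out 1 library. Tgtp1 shares 79.4% of its 50-base stretches with Tgtp2, and Tgtp2 shares 85.8% with Tgtp1, so their counts cannot be taken as separate.

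The remaining IRG rows were not called. 9930111J21Rik1 had a log2 fold change of 0.50 ± 0.34 (edgeR adjusted p = 0.386, 0.0279 with the replicate block) and 9930111J21Rik2 of 0.47 ± 0.34 (edgeR adjusted p = 0.4002, 0.0494 with the replicate block). With replicates 3 and 4 summed as well as the block, the edgeR adjusted p was 0.0745 and 0.119 for these rows, and 0.0328 for Gbp11_1. Gm5431 was at 0.84 ± 0.46 (edgeR adjusted p = 0.269). Irgq, a distant relative outside the interferon-induced group, was at 0.31 ± 0.22 (edgeR adjusted p = 0.401). By family, 9 of 11 tested GBP rows and 10 of 15 tested IRG rows were called higher, members included, where 5.22% of all tested genes were. The median log2 fold changes were 1.03 and 0.72. These counts include members that the same contrast chose and rows that share sequence, so they are a description and test nothing. A difference between the families was not tested.

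**Figure D4:**
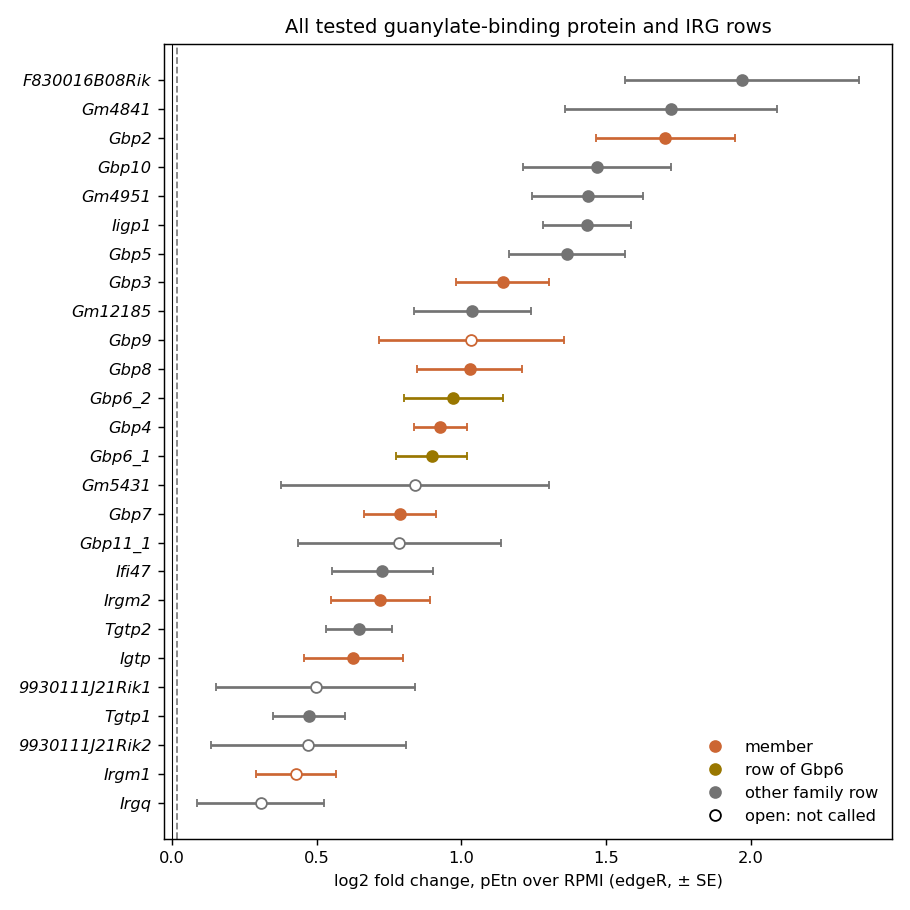
edgeR log2 fold change of pEtn over RPMI with its SE for the 26 tested rows, with members in orange, Gbp6 rows in ochre, other rows in grey and open circles for rows not called. All 26 lie to the right of 0, and the dashed line is the median of all genes tested, 0.02.

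Interferon gamma signals through its receptor chains to the kinases JAK1 and JAK2. Of 16 tested genes on a list of that route and its feedback, 2 were called higher and 3 lower with pEtn. The shares over all tested genes were 5.22% and 7.56%. The list's median log2 fold change was 0.27. With the replicate block the list's counts were 7 and 3, where 15.8% and 16.5% of all tested genes were called. Jak2 rose from 110 ± 34.3 to 183 ± 20.7 CPM (log2 fold change 0.73 ± 0.19, edgeR adjusted p = 0.0349), a call lost in 7 of 8 fits that left out 1 library.

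Other components of the route differed in direction. Ifngr2, the signalling chain of the receptor, fell from 20.03 ± 2.06 to 9.58 ± 1.37 CPM (log2 fold change -1.06 ± 0.14, edgeR adjusted p = 0.0021). Irf8, an interferon regulatory factor, fell from 298 ± 55.3 to 150 ± 30.2 CPM (-0.99 ± 0.17, edgeR adjusted p = 0.0070). Ptpn6, the phosphatase SHP-1, was at -1.14 ± 0.25 (edgeR adjusted p = 0.0181, and 0.0547 without pEtn replicate 1). Ifng itself stood at 1.11, 3.46, 6.03 and 4.81 CPM in RPMI and at 7.01, 14.8, 8.54 and 9.11 CPM with pEtn. These levels do not overlap, and the log2 fold change of 1.36 ± 0.44 was not called (edgeR adjusted p = 0.0711, 0.0239 with the replicate block). Ifng differed most in numbers 1 and 2 (2.59 and 2.08 on the log2 scale, against 0.50 and 0.91 in numbers 3 and 4). Among the members, the GBP rows differed most in numbers 3 and 4, while Irgm1, Irgm2 and Igtp did not share that split. A relation between Ifng and the members was not tested.

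Jak1, Ifngr1 and Irf1 were not called. Their log2 fold changes were 0.30 ± 0.09 for Jak1 (edgeR adjusted p = 0.0569, 0.0149 with the replicate block) and 0.42 ± 0.16 for Ifngr1 (edgeR adjusted p = 0.131, 0.0148 with the replicate block). Irf1, a transcription factor that GBP induction depends on in mouse, was at 0.40 ± 0.19 (edgeR adjusted p = 0.214, 0.0109 with the replicate block). With replicates 3 and 4 summed as well as the block, the edgeR adjusted p was 0.0228 for Irf1, 0.0280 for Ifng, 0.0802 for Jak1 and 0.0674 for Ifngr1, so the last 2 were no longer called.

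Of 21 tested interferon gamma targets outside the families, 9 were called higher and 1 lower, with a median log2 fold change of 0.37. Over all tested genes, 5.22% were called higher and 7.56% lower. Zbp1, a sensor of Z-form nucleic acid, rose by 1.29 ± 0.19 on the log2 scale (edgeR adjusted p = 0.0030). The immunoproteasome subunit Psmb9 rose by 0.73 ± 0.12 (edgeR adjusted p = 0.0062) and the peptide transporter Tap1 by 0.58 ± 0.11 (edgeR adjusted p = 0.0105). Parp9 (0.63 ± 0.09), Parp14 (0.67 ± 0.13) and Trim21 (0.78 ± 0.13) rose as well, with edgeR adjusted p of 0.0031, 0.0110 and 0.0055. The gene called lower was Cxcl10, named because it is the only such gene of the list, at -1.39 ± 0.35 (edgeR adjusted p = 0.0289). It was at 1.68 ± 0.457 CPM in RPMI and lost its call in 6 of 8 fits that left out 1 library. With replicates 3 and 4 summed, 1 of the 21 targets (Zbp1) was called higher, where 0.659% of the genes tested in that fit were.

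Of 24 tested genes of the type I interferon response, edgeR called 0, where 5.22% of all tested genes were called higher and 7.56% lower. In the list, 8 had an unadjusted edgeR p under 0.05, all higher with pEtn, as had 1615 of all 11862 tested genes. The replicate block called 8 higher, where it called 15.8% of all tested genes higher. DESeq2 called 2 of the list higher, and 957 of the 11862 genes tested in edgeR. The median log2 fold change of the 24 genes was 0.34. Their median differences within numbers 1 to 4 were 0.18, -0.21, 0.77 and 0.67, where the members had 0.80, 0.63, 1.03 and 1.14. The difference between the lists was not tested.

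**Figure D5:**
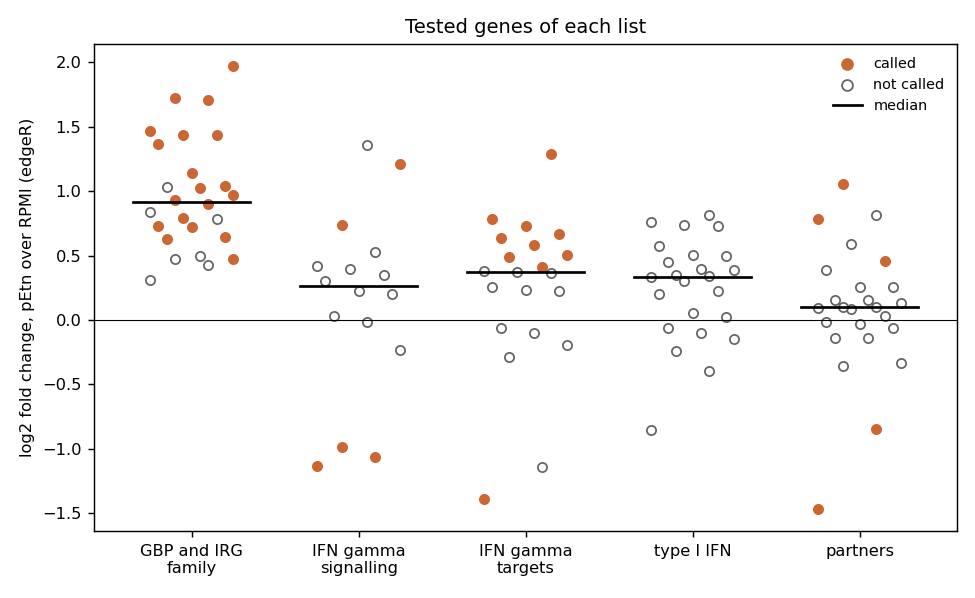
edgeR log2 fold change of each tested gene of the whole GBP and IRG family (26 rows) and of 4 other lists (16, 21, 24 and 25 genes), filled where called, with a bar at the median. The family's median is 0.91 and the other medians are 0.27, 0.37, 0.34 and 0.10, from left to right.

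A list of 25 genes that act with GBPs and IRGs covered prenylation, the autophagy conjugation genes that govern their loading on vacuoles in mouse, vacuole ubiquitination and inflammasomes. Of these, 3 were called higher and 2 lower, where 5.22% and 7.56% of all tested genes were, and the median log2 fold change was 0.10. With the replicate block the counts were 7 and 3, where 15.8% and 16.5% of all tested genes were called, so the lower calls were near the background. Casp1, the inflammasome protease, rose from 8.34 ± 1.51 to 17.3 ± 0.910 CPM (log2 fold change 1.06 ± 0.15, edgeR adjusted p = 0.0027). Gsdmd, whose product forms pores once cut by that protease, rose by 0.45 ± 0.11 on the log2 scale (edgeR adjusted p = 0.0213). Trim21, the third, is the gene given among the targets.

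Gabarapl1, a conjugation target of the autophagy machinery, fell from 118 ± 16.2 to 65.8 ± 5.36 CPM (log2 fold change -0.85 ± 0.12, edgeR adjusted p = 0.0024). Nlrp3, an inflammasome sensor, was at 4.36 ± 1.77 CPM in RPMI and 1.57 ± 0.517 CPM with pEtn (-1.47 ± 0.36, edgeR adjusted p = 0.0257). The calls of Gsdmd and Nlrp3 were each lost in 5 of 8 fits that left out 1 library.

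Similarity in sequence between the members limits how far their counts are separate. Of the 50-base stretches of GENCODE M21 transcripts, Irgm1 shares 0.310% with other genes, Gbp2 2.03% (with Gbp2b) and Gbp3 3.75% (nearly all with Gbp7). Gbp4 shares 7.70%, Gbp9 8.05%, Gbp7 12.7% and Gbp8 18.1%. Irgm2 shares 7.77% of its stretches and Igtp 11.8%, in Igtp's case with Irgm2. The gene models of Gbp4, Gbp8 and Gbp9 overlap on the same strand, as do those of Igtp and Irgm2 and of Gbp6_1 with Gbp6_2 and Gbp10. How reads of such stretches were assigned is not given in the sources used here.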

How the data were processed

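The deposited table holds, per library, whole-number counts of 45232 genes, RPKM and TPM values by the authors and a column the authors named CPM, a signal whose library sums differ. Counts entered every test, deposited TPM served for levels between genes, and the RPKM and signal columns were not used. Per the submitters' processing notes, the build was GRCm39. Aligner, counting program, annotation and strand setting are not given in the sources. Per the labels' protocols, a SmartSeq kit with 15 amplification cycles made the cDNA. Totals were 29223765 to 35504571 counts. The reads carry no molecular identifiers, so copies made in amplification cannot be told from separate molecules.

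The test on counts was run in edgeR 4.0.16 under R 4.3.3 (filterByExpr, TMM, robust quasi-likelihood F test, medium as the only term). Of the 17625 genes with any count, 11862 were tested, with Benjamini-Hochberg adjustment over them and a threshold of 0.05. SEs were derived from the F statistic. Differences within a replicate number used log2 CPM with a prior count of 2.

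The members, lists and tests were chosen with earlier results of these data known. Named were all members, every family row, signalling genes whatever their values (among them Ifng, Ifngr1, Ifngr2, Jak1, Jak2, Irf1 and Irf8), up to 6 called genes per list by smallest p, and the 5 genes most like the members' mean with at least 5 CPM. Not every gene the rule names is reported here. Other genes were named after their values were seen.

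Same-numbered libraries of the media deviated together (across genes, correlations of 0.57, 0.55, 0.44 and 0.45 for numbers 1 to 4, where pairing needed over 0.1, and at most 0.41 between different numbers). On this ground the numbers count as pairing the libraries, which the labels do not state. Some pairs of different numbers also passed 0.1. They were RPMI 3 with pEtn 4 (0.41), RPMI 4 with pEtn 3 (0.38) and RPMI 2 with pEtn 1 (0.15). The correlations thus hardly separate numbers 3 and 4 as pairs of their own. The main test, fixed without the block, does not use the pairs. Chi-square values used genes whose counts in the compared libraries summed to at least 20. Alternatives were the replicate block, other scalings, DESeq2 1.42.0, other filters, leaving out each library, summing replicates 3 and 4, and either pair of replicates alone. Promoter windows came from RefSeq tables of GRCm38.p6, shared 50-base stretches from GENCODE M21. Protein sequences were not used here.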

Additional observations from a re-analysis of the deposited data

Results flagged for a closer look

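In 52 groups of 4 libraries (the rows of the family, in each medium where some library had at least 10 counts), 5 had a library far from the other 3 by Dixon's criterion for 4 values. Chance alone gives about 1 in 20. Irgm2 stood at 172 CPM in pEtn replicate 1, where the other pEtn libraries lay between 114 and 119 CPM. Tgtp2 was at 278 CPM in pEtn replicate 2, below 373 to 375 CPM in the others. 9930111J21Rik1 was at 65.9 CPM in pEtn replicate 1, above 35.6 to 39.8 CPM. Irgq was at 16.6 CPM in pEtn replicate 1, above 9.39 to 10.6 CPM. Gbp11_1 was at 10.1 CPM in RPMI replicate 1, above 3.48 to 4.02 CPM.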

How the results depend on the processing

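Without the replicate block, edgeR called 619 genes higher and 897 lower. With the replicate block it called 1871 and 1959, with replicates 3 and 4 summed 79 and 246, with replicates 1 and 2 only 10 and 22, and with replicates 3 and 4 only 2761 and 2914. DESeq2 called 970 higher, and replicates 3 and 4 summed with the block, an alternative chosen after seeing the data, gave 1044 higher. Leaving out 1 library gave 250 to 688 higher and 542 to 950 lower. Of the 11 member rows, 0 were called with replicates 1 and 2 only, and 7 to 10 when 1 library was left out, against 9. Of the other family rows, 3 were called with replicates 3 and 4 summed, 1 with replicates 1 and 2 only, and 8 to 10 without 1 library, against 10.

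For the list of interferon gamma signalling, 5 genes were called, and 10 with the replicate block, 8 with DESeq2, 3 with replicates 3 and 4 summed, 8 with that sum and the block, 0 with replicates 1 and 2 only, 13 with replicates 3 and 4 only and 3 to 6 without 1 library. For the type I list, 0 were called, and 8 with the block, 2 with DESeq2, 19 with replicates 3 and 4 only, 4 with the sum and the block and 0 to 3 without 1 library. For the targets, 10 were called, and 1 with the sum, 0 with replicates 1 and 2 only, 17 with replicates 3 and 4 only and 6 to 10 without 1 library, the lowest without RPMI replicate 3, RPMI replicate 4, pEtn replicate 1 or pEtn replicate 4. For the partners, 5 were called, and 10 with the block, 2 with the sum, 0 with replicates 1 and 2 only, 13 with replicates 3 and 4 only and 3 to 6 without 1 library.

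Over 45 named genes and 806 values under these alternatives, 0 changed direction, 91 lost and 33 gained a call. The alternatives reuse the same libraries, and the same contrast chose the members and the called genes. The absence of reversals is therefore a description and tests nothing. Among the named genes, the block ended no call and gave 9 more, which became 5 more and 1 lost (Nlrp3) with replicates 3 and 4 summed as well, and scaling by DESeq2's size factors changed none. Fits of replicates 1 and 2 or of 3 and 4 alone rest on 2 libraries per medium, and why their counts differ was not tested.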

Other observations

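Within the type I interferon list, several genes were split by replicate number, named here after their values were seen. Rtp4 had log2 differences, pEtn minus RPMI, of 0.01, -0.65, 1.83 and 1.63 in numbers 1 to 4, and Cmpk2, a nucleotide kinase induced by interferon, had 0.31, 0.00, 1.45 and 1.61. Both were not called (edgeR adjusted p = 0.461 and 0.167). Stat2, a transcription factor of type I signalling, was higher with pEtn in all 4 numbers (0.72, 0.47, 1.04 and 1.14) and was called with the replicate block (edgeR adjusted p = 0.0013) and not without it (0.171). Of the interferon gamma targets, Cxcl9, Ido1 and Fcgr1 were not tested, with means of at most 0.0212 CPM in either medium.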
